A study of Mus musculus with 6 samples.

Results

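Transcripts of 10 NAD-consuming enzymes, the sirtuins Sirt1 to Sirt7 and the ADP-ribosyltransferases Parp1, Parp2 and Parp3, were examined in mouse haematopoietic stem cells (HSCs) sorted by their surface level of CD38. The members were the rows of the count files whose Ensembl identifier carries one of these names, which gave 10 of 49585 genes, and all 10 had enough reads to be tested. The series holds 6 bulk RNA sequencing libraries, 3 from CD38 pos and 3 from CD38 neg cells. All came from the bone marrow of untreated C57BL/6 mice aged 8 to 16 weeks, and every library pooled the sorted cells of 10 mice. The gate required Kit, Sca-1, CD150 and CD201 and the absence of lineage markers, CD48 and CD34, in both populations, which the protocol calls CD38hi and CD38lo. The series' design text sets each CD38 pos library against a CD38 neg library, which gives 3 pairs, and does not say whether the libraries of a pair share mice.

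Sirtuins remove acetyl and longer acyl groups from lysines and split a molecule of NAD each time they do so. SIRT1, SIRT6 and SIRT7 are mainly nuclear, SIRT2 is mainly cytoplasmic, and SIRT3, SIRT4 and SIRT5 work in mitochondria. PARP1, PARP2 and PARP3 bind broken DNA and use NAD to attach ADP-ribose to proteins at the break. CD38 is itself an NAD-splitting enzyme, so the sorted marker and these enzymes draw on the same cofactor. In HSCs, SIRT3 and SIRT7 are known for roles in mitochondrial homeostasis and in maintaining aged stem cells.

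Total counts ranged from 16771180 to 18558610 per library. Cd38 itself was at 37.0 to 58.3 CPM (counts scaled to library size) in CD38 pos and 23.9 to 35.6 CPM in CD38 neg libraries (edgeR quasi-likelihood test, adjusted p = 0.893). The positive sort markers were present in every library, Kit at 110 to 556 CPM and Procr, which encodes CD201, at 33.2 to 67.5 CPM. Transcripts of markers gated out were present too, Cd34 at 203 to 291 CPM and Cd48 at 53.5 to 144 CPM. A list of 14 granulocyte and monocyte markers took 8.22% to 15.8% of counts in CD38 pos and 9.23% to 13.4% in CD38 neg libraries, with all 14 detected in every library. A list of 10 HSC markers took 0.0574% to 0.143% and 0.0786% to 0.197%. The 10 B cell and plasma cell markers took 0.0374% to 0.0984% in CD38 pos and 0.131% to 0.275% in CD38 neg libraries, so that here the populations did not overlap. Among these markers Jchain had a log2 fold change of -4.26 (adjusted p of 0.0701 in edgeR) and Igkc -3.07 (0.125), each lower in CD38 pos in all 3 pairs. Erythroid and megakaryocyte markers took 0.214% to 0.655% of counts over the 6 libraries, T and NK cell markers 0.0143% to 0.0303%, and endothelial and stromal markers 0.00401% to 0.0179%, each with overlap between the populations. In the endothelial and stromal list, Sparc had a log2 fold change of 1.82 (adjusted p of 0.125 in edgeR) and was higher in CD38 pos in all 3 pairs. Of the 7 genes of this list that were tested, 5 had positive and 2 negative fitted values. The part of cells other than HSCs in the values below was not tested. In bulk samples such as these, fewer cells of a type and less RNA per cell cannot be told apart.

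The promoters of Sirt1 and Parp1 are printed because Sirt1 had the widest difference within a pair and Parp1 was the most abundant member, and because no annotated exon lies in the stretch shown. The sequences are from RefSeq on GRCm38.p6, which matched all 10 members with 12 start windows, and run 5′ to 3′ on the strand of the gene. The Parp1 stretch runs up to the start. The Sirt1 stretch leaves out the last 15 bases before the start, which lie in an annotated Sirt1 exon. Capitals mark the E-box CACGTG and the GC box GGGCGG on either strand; matches may overlap.
Sirt1, chr10:63339051-63339285, minus strand, 235 bases: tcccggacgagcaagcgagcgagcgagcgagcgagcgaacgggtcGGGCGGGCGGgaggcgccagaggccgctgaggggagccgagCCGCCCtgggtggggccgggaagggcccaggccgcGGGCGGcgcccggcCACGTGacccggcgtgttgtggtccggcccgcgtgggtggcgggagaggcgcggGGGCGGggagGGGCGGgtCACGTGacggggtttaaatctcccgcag
Parp1, chr1:180568641-180568890, plus strand, 250 bases: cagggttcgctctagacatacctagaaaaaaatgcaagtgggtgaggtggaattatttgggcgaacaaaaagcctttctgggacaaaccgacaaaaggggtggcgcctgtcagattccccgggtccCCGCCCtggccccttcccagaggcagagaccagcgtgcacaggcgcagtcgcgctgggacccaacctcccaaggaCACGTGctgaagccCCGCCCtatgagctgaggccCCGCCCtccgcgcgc

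The Sirt1 stretch held 2 E-boxes and 6 GC boxes, and the Parp1 stretch held 1 and 3. In the 250 bases before the start, CACGTG was found in 3 of the 10 members, Sirt1, Parp1 and Parp2, or 3 of their 12 windows. Of 32851 RefSeq promoter windows of the same length, 6.02% held it. GGGCGG was found in 8 of the 10 members, or 8 of their 12 windows, and in 32.7% of all windows. Also searched were CCAAT, in 4 members and 33.9% of windows, and the ETS motif CCGGAAG, in 3 members and 6.91% of windows. The TATA box TATAAA, searched in the same way, was in 0 members and 12.4% of windows. The GC content was 79.2% before Sirt1 and 61.6% before Parp1, against a median of 52.4% over all windows. Such matches describe the letters only.

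No member differed between the populations past an adjusted p of 0.05. The edgeR quasi-likelihood test, with pair as a block and Benjamini-Hochberg adjustment over the 14785 genes tested, called 0 of the 10 members, against 0.0135% of all genes (2 genes). Of these 1 was higher and 1 lower in CD38 pos cells, 0.00676% in each direction, where the members had 0 and 0. Adjusted p-values of the members ran from 0.926 to 0.996 in edgeR. At an unadjusted p under 0.05 there were 0 of 10 members, against 5.08% of all genes, and DESeq2 and limma-voom likewise had 0 of 10 at either threshold. Log2 fold changes of CD38 pos over CD38 neg ranged from -0.38 for Sirt3 to 0.26 for Parp1. They were positive for 5 members and negative for 5, with a median of 0.03 where all tested genes had 0.00. For 4 of the 10 the size of the log2 fold change exceeded the median size over all genes, 0.20.

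Every one of the 10 unadjusted 95% intervals lay inside a 2-fold difference in either direction. Among the narrowest, the interval of the fold ran from 0.586 to 1.01 for Sirt3, from 0.740 to 1.30 for Parp2 and from 0.791 to 1.39 for Sirt2. The widest belonged to Sirt1, from 0.668 to 1.80, and Sirt4, from 0.524 to 1.43. Because each interval also includes values away from 1, a missing call does not show that the populations are alike.

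**Figure D1:**
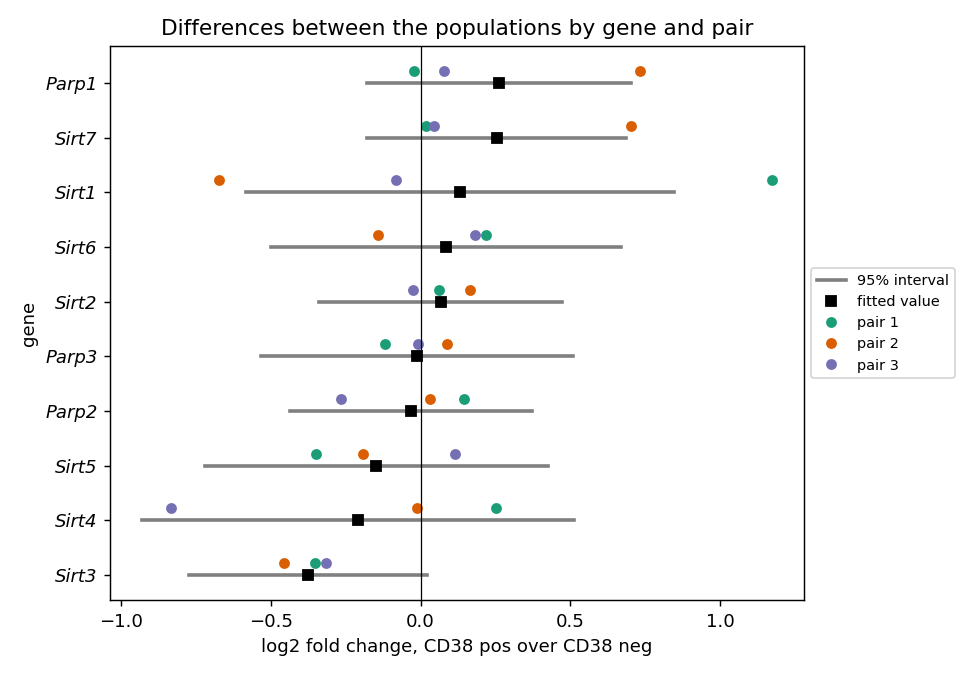
Log2 fold change of CD38 pos over CD38 neg for each gene, with black squares for the fitted value, grey bars for its unadjusted 95% interval and coloured points for the difference in log2 CPM within each pair. All 10 intervals include 0, and Sirt3 is the only member with all 3 pair points below 0.

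The mitochondrial deacetylase gene Sirt3 came closest to a difference. It was at 53.5, 58.3 and 73.5 CPM in CD38 pos libraries 1, 2 and 3, and at 68.2, 80.1 and 91.6 CPM in their CD38 neg partners. The CD38 pos library was the lower of its pair each time, but the groups overlapped, because CD38 pos library 3 was above CD38 neg library 1. The group means were 61.7 ± 10.4 CPM (SD, n = 3) and 80.0 ± 11.7 CPM (SD, n = 3). The fitted log2 fold change of -0.38 (SE 0.18) had an unadjusted p of 0.0614 and an adjusted p of 0.926 in edgeR. Differences within pairs were -0.35, -0.46 and -0.32, the smallest spread among the 10 members. Of all genes tested, 11.3% were lower in all 3 pairs and 24.5% went the same way in all 3, so this pattern was common. By unadjusted p Sirt3 ranked 938 among the 14785 genes. The summed B cell and plasma cell markers were likewise lower in the CD38 pos library of all 3 pairs, and their part in the Sirt3 values was not tested.

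Sirt3 (GRCm38 chromosome 7, 140863666 to 140882309, minus strand) shares exon sequence with genes on the other strand, and the strand setting of the counting is not given in the sources used here. The overlap is 418 bases with Ric8a and 342 bases with Psmd13, a proteasome subunit gene whose start is 341 bases from that of Sirt3. Reads from these stretches may therefore be shared or left out. Psmd13 had pair differences of 0.14, -0.05 and -0.32 and a log2 fold change of -0.07. Ric8a had 0.00, 0.14 and 0.12, and a log2 fold change of 0.09. Neither was lower in all 3 pairs.

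The other mitochondrial sirtuins were scarce. Sirt4, which encodes an ADP-ribosyltransferase and lipoamidase, had 69, 79 and 80 reads in CD38 pos libraries 1, 2 and 3 and 58, 81 and 130 in CD38 neg libraries. In CPM these were 4.14, 4.47 and 4.41 against 3.45, 4.50 and 7.95. Only CD38 neg library 3 stood above the rest, and the pair differences were 0.25, -0.01 and -0.83. The fit gave -0.21 on the log2 scale, with an SE of 0.34 and an adjusted p of 0.958 in edgeR. Without pair 3 it gave 0.12.

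Sirt5, whose enzyme removes succinyl and malonyl groups, was at 7.91, 10.2 and 6.90 CPM in CD38 pos and 10.1, 11.7 and 6.36 CPM in CD38 neg libraries. Here the libraries of pair 3 were the lowest of their groups, and pairs 2 and 3 differed by more than the libraries of any pair. Its fitted log2 difference was -0.15, with an SE of 0.27 and an adjusted p of 0.964 in edgeR. Thus the 3 mitochondrial members all had negative fitted values, yet Sirt4 and Sirt5 each changed sign between pairs.

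Among the nuclear sirtuins, Sirt1 was the least stable. This gene encodes the best-studied sirtuin, which deacetylates histones, p53 and FOXO factors. It was at 16.0, 7.86 and 11.3 CPM in CD38 pos libraries 1, 2 and 3, and at 7.03, 12.6 and 11.9 CPM in CD38 neg libraries. Pair 1 was higher in CD38 pos by 1.17 on the log2 scale, pair 2 had -0.67, and pair 3 had -0.08. These cancelled to a log2 fold change of 0.13, with an SE of 0.33 and an adjusted p of 0.970 in edgeR. Without pair 1 it was -0.38 and without pair 2 it was 0.53, so its sign rested on single pairs.

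In GENCODE M21 the outermost annotated start of Sirt1 lies 42.7 kb upstream of the RefSeq start whose promoter is printed above. It is 739 bases from the start of Dnajc12 on the other strand. Dnajc12, a co-chaperone gene named after its values were seen, had pair differences of 0.83, -0.58 and 0.01 beside 1.17, -0.67 and -0.08 for Sirt1. In each of pairs 1 and 2 the 2 genes had the same sign. An antisense gene over Sirt1, Gm16145, had 0 reads in the 6 libraries.

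Sirt6, a chromatin deacylase gene linked to DNA repair, was at 8.33, 9.11 and 6.95 CPM in CD38 pos and 7.15, 10.1 and 6.11 CPM in CD38 neg libraries. Pair 2 was the highest and pair 3 the lowest in each population. CD38 pos cells had a fitted log2 fold change of 0.09, with an SE of 0.27 and an adjusted p of 0.978 in edgeR. Pair differences were 0.22, -0.14 and 0.18. Ankrd24 starts 743 bases from Sirt6 on the other strand and had 15 to 52 reads per library. Its pair differences were -0.91, -0.56 and 0.40.

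Sirt7 encodes a histone deacylase concentrated in the nucleolus. Its 3 CD38 pos libraries were almost level at 95.6, 93.2 and 94.8 CPM, while the CD38 neg libraries were at 94.5, 57.3 and 91.8 CPM. CD38 neg library 2 was the low one, and the groups overlapped. Pair differences were 0.02, 0.70 and 0.05, positive in all 3 as for 13.2% of all genes tested. The fitted log2 fold change of 0.25 had an SE of 0.20 and an adjusted p of 0.932 in edgeR, and leaving out pair 2 brought it to 0.02. Sirt7 shares 124 bases of exon with Mafg on the same strand, and Mafg had pair differences of 0.16, 0.39 and 0.11.

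The cytoplasmic member Sirt2, a tubulin deacetylase gene, varied least. It was at 62.9, 61.3 and 53.4 CPM in CD38 pos and 60.4, 54.7 and 54.4 CPM in CD38 neg libraries, a range of 1.18-fold over the 6 libraries. Its log2 fold change was 0.07, with an SE of 0.19 and an adjusted p of 0.975 in edgeR.

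**Figure D2:**
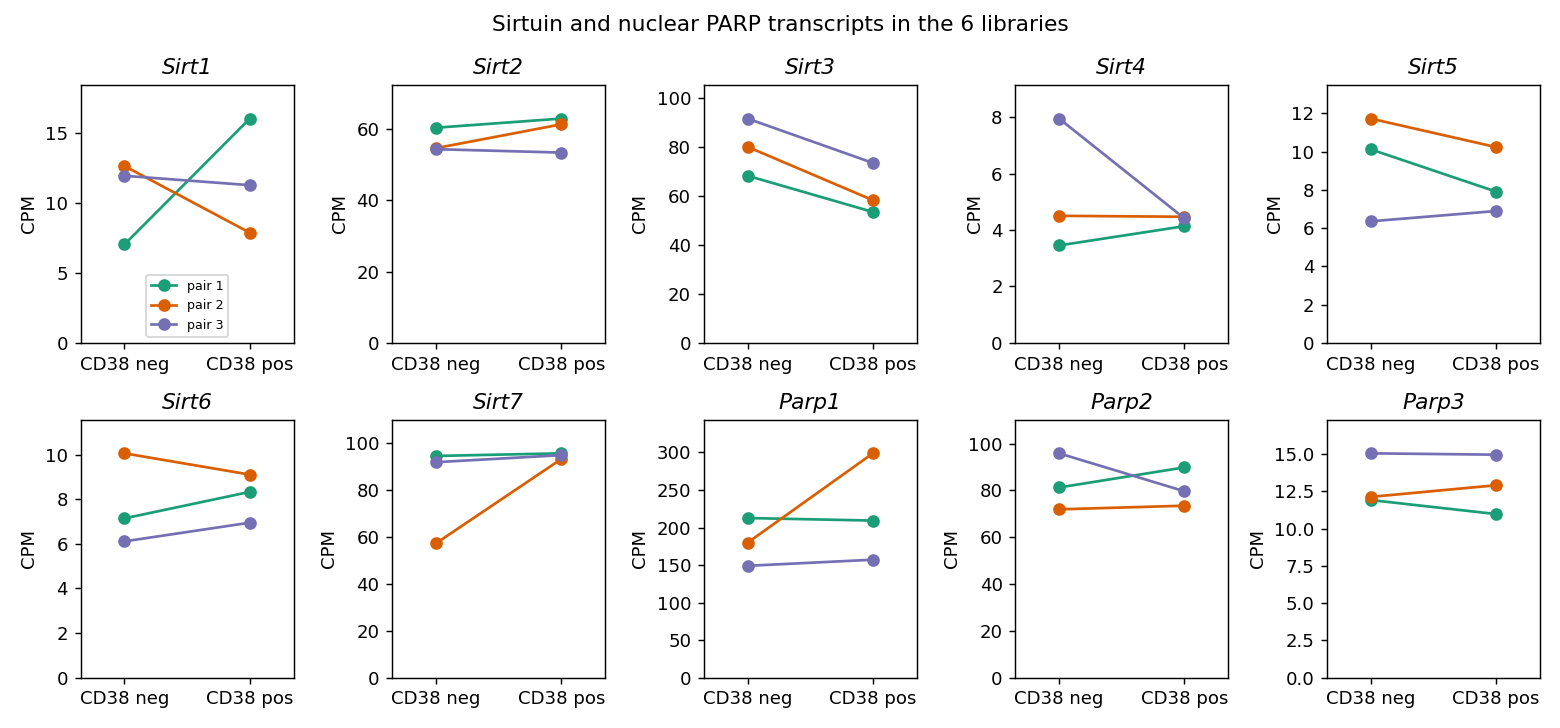
CPM of each gene in the 6 libraries on axes that start at 0, with a coloured line joining the CD38 neg and CD38 pos library of a pair. Sirt3 slopes down in all 3 pairs, the lines of Sirt1 cross, and for Sirt7 and Parp1 the slope is mostly that of pair 2.

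Parp1, the main DNA damage ADP-ribosyltransferase, was the most abundant member. It was at 209, 299 and 157 CPM in CD38 pos libraries 1, 2 and 3, and at 213, 180 and 149 CPM in CD38 neg libraries. CD38 pos library 2 was well above the other 5, which overlapped between the groups. The means were 222 ± 71.7 CPM (SD, n = 3) and 180 ± 31.8 CPM (SD, n = 3). The fitted difference, 0.26 on the log2 scale with an SE of 0.21 and an adjusted p of 0.932 in edgeR, came from pair differences of -0.02, 0.73 and 0.08. Without pair 2 it was 0.01.

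Pair 2 thus set the fitted values of Parp1 and Sirt7. In that pair the summed HSC markers took 0.0813% of counts in the CD38 pos and 0.197% in the CD38 neg library, the highest of the 6. Kit was at 110 and 556 CPM there, the widest difference of this list in pair 2. Slamf1, at 29.6 and 23.2 CPM, and Ctnnal1, at 50.3 and 41.1 CPM, went the other way. The granulocyte and monocyte list took 8.22% and 9.23%, the lowest share of each population. B cell and plasma cell markers took 0.0374% and 0.131%, with Jchain at 0.170 and 169.7 CPM, and erythroid and megakaryocyte markers took 0.295% and 0.473%. The part of these differences in the values of Parp1 and Sirt7 was not tested.

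Parp2, which has overlapping duties with PARP1 in break repair, was at 89.8, 73.4 and 79.6 CPM in CD38 pos and 81.2, 71.9 and 95.8 CPM in CD38 neg libraries. The populations were interleaved, and the fitted log2 difference was -0.03, with an SE of 0.19 and an adjusted p of 0.987 in edgeR. Its start faces that of Rpph1, the RNA of RNase P, at 74 bases, but Rpph1 had 4 to 30 reads per library.

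Parp3, whose enzyme adds single ADP-ribose units at double-strand breaks, was at 10.97, 12.9 and 14.95 CPM in CD38 pos and 11.9, 12.1 and 15.04 CPM in CD38 neg libraries. Each CD38 pos library lay close to its partner, and the libraries of pair 3 were the highest. Fitted over the pairs, the log2 difference was -0.01, with an SE of 0.24 and an adjusted p of 0.996 in edgeR. For Parp1, Parp2 and Parp3, as for every member, the 2 populations overlapped in CPM. Of all genes tested, 6.53% did not overlap.

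**Figure D3:**
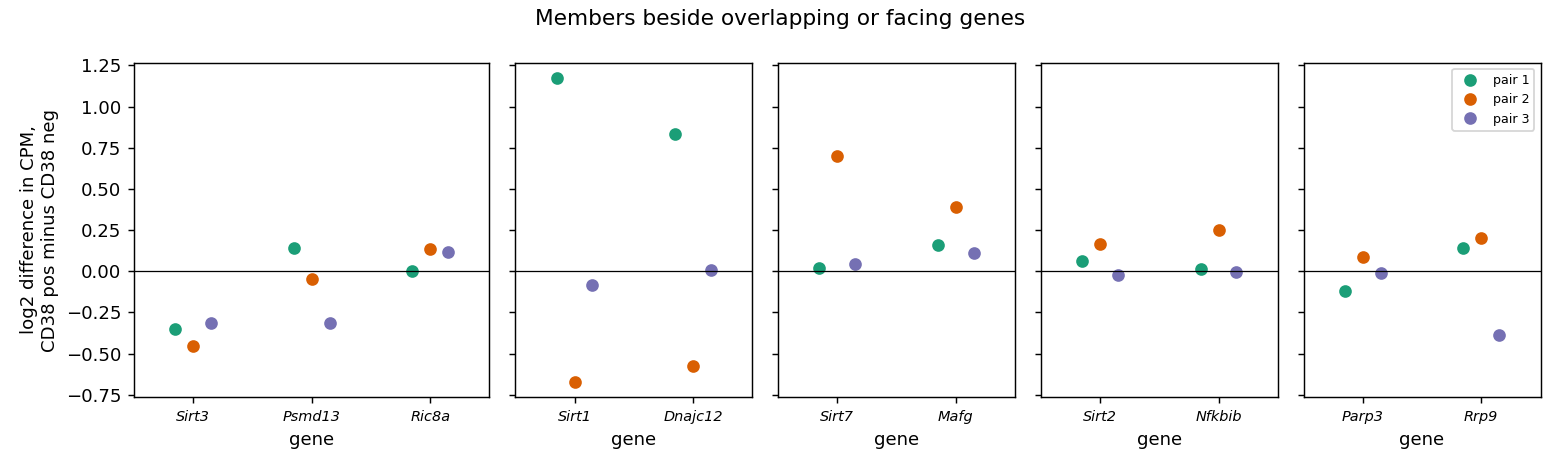
Difference in log2 CPM within each pair, CD38 pos minus CD38 neg, for Sirt1, Sirt2, Sirt3, Sirt7, Parp3 and a choice of neighbouring genes. The neighbours share exon sequence with the member or start close by on the other strand. Ankrd24, near Sirt6, and Rpph1, near Parp2, are not shown. Sirt3 lies below 0 in all 3 pairs while Psmd13 and Ric8a do not, and Sirt1 and Dnajc12 are both high in pair 1 and low in pair 2.

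Levels were compared between genes as RPKM, which is CPM divided by exon length in kilobases, with exon lengths from GENCODE M21. Parp1 was the highest in all 6 libraries, at a mean of 38.0 RPKM and a range of 28.2 to 56.5. Parp2 was the second in all 6, at 22.6 RPKM and 19.8 to 26.4. The ratio of Parp1 to Parp2 per length went from 1.07 in CD38 neg library 3 to 2.79 in CD38 pos library 2. Sirt7 followed at 17.1 RPKM (11.1 to 18.6), then Sirt3 at 11.9 (8.95 to 15.3) and Sirt2 at 11.5 (10.6 to 12.5). Sirt7 was above Sirt3 in 5 of 6 libraries, and their ranges overlapped. Sirt3 and Sirt2 did not differ beyond their spread, with Sirt3 the higher in 3 of 6 libraries.

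A gap separated these 5 genes from the others. Sirt2 was at 10.6 RPKM or more in every library, and Parp3 reached 4.07 at most. Parp3, Sirt6, Sirt1, Sirt4 and Sirt5 had means of 3.51, 2.86, 2.09, 2.01 and 1.46 RPKM, and each overlapped its neighbours among these 5. Per length, Sirt1 was therefore among the lowest of the sirtuins, at 2.61% to 7.94% of the Parp1 level of the same library. Dividing by the longest transcript instead left the same 5 genes in the upper group, but placed Sirt2 at the third and Sirt1 at the last position.

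**Figure D4:**
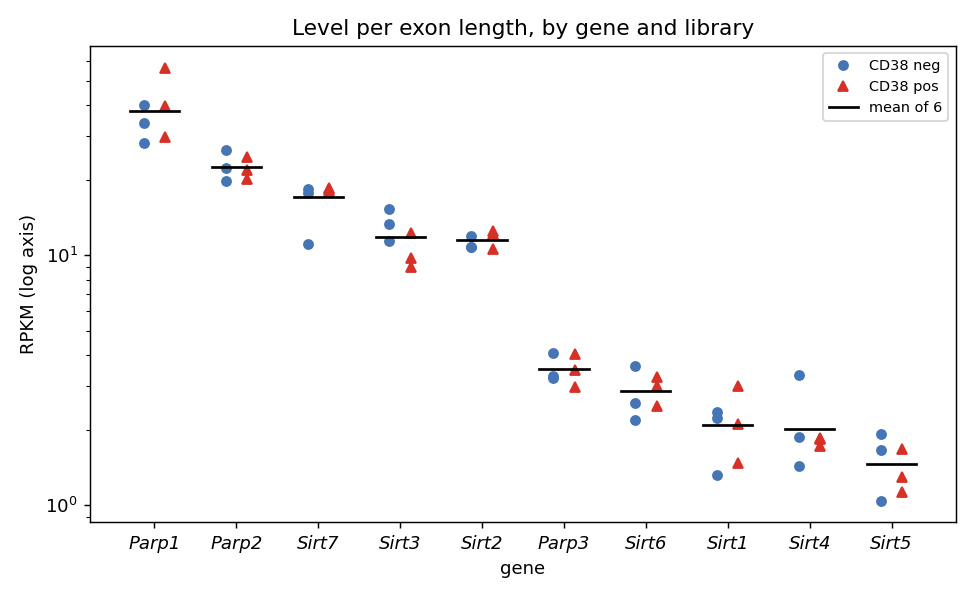
RPKM of each gene on a log axis, with circles for CD38 neg libraries, triangles for CD38 pos libraries and a bar for the mean of 6. Parp1, Parp2, Sirt7, Sirt3 and Sirt2 lie above 8 RPKM in every library, and the other 5 lie below 5 RPKM.

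The members did not vary as a block. Over 45 pairs of members the Pearson correlation of log2 CPM across the 6 libraries, which share pairs and composition and number only 6, had a median of -0.09. It ran from -0.88 for Sirt2 with Sirt3 to 0.81 for Sirt5 with Sirt6, and Sirt2 with Parp1 also reached 0.81. The genes most like Parp1 across the 6 libraries were the translation factor gene Eef1b2, the recombination gene Rad54l and the mitochondrial channel gene Vdac1, at r of 0.998, 0.998 and 0.997. For Sirt3 they were Thap3, Fzd5 and Spin2c, at r of 0.993, 0.992 and 0.991. With so few libraries high values are frequent: 539 of 14784 genes exceeded 0.9 with Parp1 and 229 with Sirt3.

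Lists of related genes each had 0 genes past the threshold in either direction, against 0.0135% of all genes tested. At that share, 0 calls in lists of this size is no result about them. Among 13 other PARP family genes, 5 fitted values were positive and 8 negative, with a median log2 fold change of -0.08. Closest to the threshold were Parp16, with a log2 fold change of 0.48 and an edgeR unadjusted p of 0.0889, and Parp11, with -0.47 and 0.0981. Parp16, which modifies proteins of the endoplasmic reticulum, was at 13.4, 16.97 and 14.4 CPM in CD38 pos and 13.3, 9.45 and 9.54 CPM in CD38 neg libraries. Its groups did not overlap, as for 6.53% of all genes tested, but only just. The lowest CD38 pos value was 13.37 CPM and the highest CD38 neg value 13.34 CPM. Parp11 had pair differences of -0.22, -1.34 and 0.14.

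The 16 genes that read, remove or act with ADP-ribose had a median of 0.16, with 11 positive and 5 negative values. At an edgeR unadjusted p under 0.05 there were 0 of 16, against 5.08% of all genes tested. Xrcc1, the scaffold that PARP1 draws to strand breaks, was closest, at 51.4, 71.1 and 35.5 CPM in CD38 pos and 48.8, 35.02 and 28.2 CPM in CD38 neg libraries. It was higher in CD38 pos in every pair, by 0.08, 1.02 and 0.33, as were 13.2% of all genes tested. Yet its groups overlapped (log2 fold change 0.48, SE 0.22, edgeR unadjusted p = 0.0515, adjusted p = 0.926). The median over this list was 0.31 in pair 2 but 0.00 and -0.05 in pairs 1 and 3.

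A list of 16 genes drawn up as regulators, targets or partners of sirtuins had 14 that could be tested, with a median of -0.02. Idh2, a mitochondrial enzyme gene whose product SIRT3 deacetylates, was at 248, 321 and 190 CPM in CD38 pos and 211, 184 and 159 CPM in CD38 neg libraries. CD38 pos was higher in each pair, by 0.23, 0.80 and 0.25, as for 13.2% of all genes tested. The groups of Idh2 overlapped (log2 fold change 0.43, edgeR unadjusted p = 0.0478, adjusted p = 0.926). Ube2d1, a ubiquitin-conjugating enzyme gene, had -0.68 (edgeR unadjusted p = 0.0838), with -1.93 in pair 2 against -0.18 and 0.10 in the others.

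The 11 zinc-dependent deacetylases, which need no NAD, had a median of 0.06, and 7 were positive. Hdac5 had 0.56 and Hdac8 had -0.58, each with 1 pair of the opposite sign. Of 10 genes that supply or recycle NAD, 7 were tested and had a median of -0.04. Nmnat3, an adenylyltransferase gene of NAD synthesis, had -0.42 and was lower in all 3 pairs, and Nadsyn1, the NAD synthetase gene, had 0.43 and was higher in all 3. Neither passed the threshold (edgeR adjusted p = 0.926 for each). In the same direction in all 3 pairs were 6 of these 7 genes, 3 higher and 3 lower, beside 24.5% of all genes tested.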

How the data were processed

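The authors deposited raw read counts per Ensembl gene, 1 file for each of the 6 libraries. Per the submitters' processing notes, cutadapt, STAR and HTSeq 0.6.1p1 were used with GRCm38 (mm10); annotation release and strand setting are not given in the sources used here. Libraries were grouped by the population in the labels.

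Symbols matched 49326 of 49585 identifiers. In R 4.3.3, genes were kept with filterByExpr (14785), scaled by TMM, and tested in edgeR 4.0.16 (glmQLFit, glmQLFTest) with pair plus population; SEs and 95% intervals derive from the quasi-F statistic. Pair differences are in log2 CPM (prior count 2). The pairing comes from the series' design text; deviations of paired libraries from their group means correlated at 0.34, 0.12 and 0.24. No library repeated another of its population: chi-square values were 51.5 to 116 times their degrees of freedom. A count of 3 corresponds to 0.16 to 0.18 CPM, for counting error only. With pair in the fit, p-values set the difference between populations against a spread across the 3 pairs of pools. That spread is estimated for each gene with information drawn from all tested genes. It can therefore differ from the spread of a gene's own pair differences. For Sirt3 the SE was 0.18, while the SD of its 3 pair differences was 0.073.

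All 10 members were named. Of each pathway list the 2 genes with the lowest p were named, except 1 gene that is not reported here, and of genes like Parp1 and Sirt3 the 3 with the highest correlation. Further genes were chosen after their values were seen. The members and lists were chosen with earlier results of these data known. The procedure was tested on simulated data. Coordinates are from GENCODE M21 (GRCm38) and promoters from RefSeq (GRCm38.p6). Alternatives were the fit without the block, DESeq2 1.42.0, limma-voom (limma 3.58.1), other scalings, filters and lengths, an adjusted p of 0.1, a GC correction (lowess, span 0.3, on the longest transcript), and each pair left out.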

Additional observations from a re-analysis of the deposited data

How the results depend on the processing

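The number of members called was 0 under every alternative run, and no member had an unadjusted p under 0.05 in any of them (edgeR, DESeq2 and limma-voom). The sign of the fitted difference was kept in 106 of 110 alternative values; the other 4 came from leaving out a pair. When a pair was left out, the log2 fold change of Sirt1 ranged from -0.38 (without pair 1) to 0.53, that of Sirt4 from -0.43 to 0.12 (without pair 3), that of Parp2 from -0.12 to 0.087 (without pair 3) and that of Parp3 from -0.075 to 0.041 (without pair 1). That of Sirt3 ranged from -0.41 to -0.35, that of Sirt7 from 0.02 to 0.37 and that of Parp1 from 0.01 to 0.41. The adjusted p of Sirt3 ran from 0.724 to 0.9999 over its 11 alternatives. Without the replicate block, Sirt3 had -0.37 (edgeR adjusted p = 0.994); the block changed no member's call.

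The count of all genes called, 2, was 0 without the replicate block (417 at an unadjusted p under 0.05) and 0 with unscaled library totals (595). It was 11 with DESeq2, 7 with DESeq2 size factors, 7 with the GC correction fitted with the replicate block, 7 at an adjusted p of 0.1, 13 with a mean of at least 10 counts and 80 with no filter beyond 1 count, and 2 to 41 when a pair was left out. The cause was not tested. Sirt4 had the lowest mean CPM of the members, with 58 to 130 reads per library, and the part of depth in its spread was not tested.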
